A study of Mus musculus with 23 samples.

Results

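The 10 genes described here encode acute phase proteins of the mouse liver: Saa1, Saa2, Saa3, Orm1, Orm2, Hp, Lcn2, Hpx, Apcs and Itih4. They were taken by gene name from the deposited count tables of livers of male and of female mice, which list 24434 and 24940 genes. All 10 are in both tables, out of 22852 genes that the tables share and 26522 in either. All 10 had enough counts to be tested in every comparison.

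Acute phase proteins are plasma proteins that hepatocytes make in larger amounts when tissue injury or infection releases cytokines. Interleukin-1 and tumour necrosis factor act through the transcription factors NF-kB and C/EBP, and interleukin-6 acts through gp130 and STAT3. The serum amyloid A proteins travel with high-density lipoprotein, the orosomucoids bind small molecules, haptoglobin and hemopexin capture free haemoglobin and haem, and lipocalin-2 binds bacterial siderophores that carry iron. Other liver proteins, such as albumin and transthyretin, are made less in the same state and are called negative acute phase proteins.

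The study sequenced polyadenylated RNA from 23 mouse livers in 4 groups: 5 B100-Control males, 6 B100-LKO males, 6 B100-Control females and 6 B100-LKO females. LKO stands for ablation of Cpt1a in the liver, which encodes a carnitine palmitoyltransferase needed for long-chain fatty acids to enter mitochondria. Every animal was of the B100 background, received the WD diet for 16 weeks and was killed fed, so that no group was on another diet or fasted. The age of the mice and the allele or Cre that made the LKO are not given in the sources used here. The labels number the livers within each group but do not state that each is from its own mouse, so the p-values measure the spread between these samples.

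Total counts per library ran from 14224665 to 19626662. Cpt1a was 303 to 431 CPM (counts scaled to library size and TMM factors) in control males and 42.2 to 96.8 CPM in LKO males. It was 285 to 431 CPM in control females and 61.8 to 86.4 CPM in LKO females, with no overlap in either sex. Summed over 8 hepatocyte markers, expression was 11899 to 26660 CPM in the 23 livers. All males are in one deposited table and all females in the other, so sex and table cannot be told apart. In whole liver, fewer cells of a type and less RNA per cell cannot be told apart either.

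LKO female replicate 6 stood apart from every other liver in these genes, and the comparisons of the 10 genes that involve LKO females are given with and without it. Together the 10 transcripts took 3.69% of its counts (95% Wilson interval 3.69 to 3.70, counting error only), against 1.47 to 1.67% in the other 5 LKO females and 1.10 to 1.48% in the control females. Its Cpt1a level was 74.7 CPM, within the range of its group.

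The promoters of Lcn2, Saa1, Saa2 and Orm2, which differed most in that liver among the 10 genes, are shown with those of Saa3 and Apcs. They carry matches to C/EBP, STAT or interleukin-6 response element motifs in different arrangements. The RefSeq promoter table, on GRCm38.p6, held 8 of the 10 genes, and Orm1 and Hp were not matched. Each line gives the 250 bases before the start of the gene, with matches in capitals to the C/EBP motif TTNNGCAA in the SAA genes, Orm2 and Lcn2, and to the interleukin-6 response element CTGGGAA and the STAT motif TTCNNNGAA in Apcs, on either strand.
Saa1: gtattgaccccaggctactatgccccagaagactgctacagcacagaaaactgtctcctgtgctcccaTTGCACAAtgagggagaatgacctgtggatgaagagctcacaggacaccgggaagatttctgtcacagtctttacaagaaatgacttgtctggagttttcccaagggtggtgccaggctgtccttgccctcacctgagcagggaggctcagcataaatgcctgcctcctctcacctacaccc
Saa2: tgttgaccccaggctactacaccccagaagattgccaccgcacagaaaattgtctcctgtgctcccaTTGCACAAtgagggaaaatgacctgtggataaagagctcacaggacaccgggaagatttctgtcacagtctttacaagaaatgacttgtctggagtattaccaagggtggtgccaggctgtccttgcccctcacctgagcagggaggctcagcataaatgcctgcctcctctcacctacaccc
Saa3: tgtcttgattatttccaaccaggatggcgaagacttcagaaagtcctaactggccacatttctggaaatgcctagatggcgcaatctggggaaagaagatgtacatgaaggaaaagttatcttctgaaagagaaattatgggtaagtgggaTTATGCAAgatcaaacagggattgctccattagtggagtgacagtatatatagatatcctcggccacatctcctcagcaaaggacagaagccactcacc
Orm2: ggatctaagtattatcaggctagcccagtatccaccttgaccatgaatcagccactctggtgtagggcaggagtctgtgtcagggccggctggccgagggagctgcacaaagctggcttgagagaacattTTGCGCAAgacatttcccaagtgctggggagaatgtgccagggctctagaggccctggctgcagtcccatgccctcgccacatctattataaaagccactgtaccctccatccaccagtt
Lcn2: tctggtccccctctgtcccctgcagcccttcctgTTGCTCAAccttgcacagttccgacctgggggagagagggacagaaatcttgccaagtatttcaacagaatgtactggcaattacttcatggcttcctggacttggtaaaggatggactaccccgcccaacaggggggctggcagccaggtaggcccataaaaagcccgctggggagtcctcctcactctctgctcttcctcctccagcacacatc
Apcs: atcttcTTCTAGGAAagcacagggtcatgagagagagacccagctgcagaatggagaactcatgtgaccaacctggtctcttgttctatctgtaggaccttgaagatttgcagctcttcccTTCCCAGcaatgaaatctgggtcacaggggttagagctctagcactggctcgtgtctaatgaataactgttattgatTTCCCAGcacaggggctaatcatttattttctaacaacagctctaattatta
The windows are chr7:46742981-46743230 (minus strand) for Saa1, chr7:46751583-46751832 (plus strand) for Saa2, chr7:46715677-46715926 (minus strand) for Saa3, chr4:63362199-63362448 (plus strand) for Orm2, chr2:32387740-32387989 (minus strand) for Lcn2 and chr1:172895055-172895304 (minus strand) for Apcs.

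Saa1 and Saa2 lie in opposite orientation on chromosome 7 and have 94.8% identical bases over these windows in a global alignment. The other pairs among Saa1, Saa2, Saa3, Orm2 and Lcn2 had 46.2 to 53.2% identical bases. The C/EBP motif was found in 6 of the 8 promoters, those of Saa1, Saa2, Saa3, Orm2, Hpx and Lcn2, against 9.56% of 32851 promoters of the same length. The interleukin-6 response element was found in Apcs only among these 8, at 2 positions, against 9.10% of all promoters. The STAT motif was found in Apcs and Itih4, against 7.02%. For NF-kB only a fixed pattern of 10 bases was searched, and it was found in none of the 8, against 1.41%. Other forms of the NF-kB motif, and bases outside these windows, were not searched. A lack of NF-kB sites in these genes is therefore not shown. No match of one motif overlapped a match of another in these 8 windows. A match is a description of these letters and not a measured binding site.

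In mm39, the build named in the submitters' processing notes, Saa3 (46361422 to 46365124), Saa1 (46389921 to 46392404) and Saa2 (46401214 to 46403737) lie close together on chromosome 7. Orm1 (63262797 to 63266400) and Orm2 (63280686 to 63284115) lie close together on chromosome 4. The remaining genes are Hp on chromosome 8, Hpx on chromosome 7, Lcn2 on chromosome 2, Apcs on chromosome 1 and Itih4 on chromosome 14. Of the 50-base windows of the longest GENCODE M21 coding transcript of Saa1, 13.2% also occur in Saa2, and of those of Orm1, 20.4% occur in Orm2. Of the 100-base windows, 0% of those of Saa1 occur in Saa2, and 6.95% of those of Orm1 occur in Orm2. How the authors assigned reads that match both genes is not given in the sources used here. The split between Saa1 and Saa2 and between Orm1 and Orm2 is therefore uncertain.

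Levels were compared between genes as the deposited FPKM, which divides by the gene length of the table. In control males the order of the median FPKM was Hpx, Hp, Orm1, Itih4, Apcs, Saa1, Orm2, Saa2, Lcn2 and Saa3. Hpx and Hp were the most abundant in all 4 groups, with 3793 ± 367 and 3643 ± 355 FPKM in control males (SD, n = 5). Saa3, the form made mainly outside hepatocytes, was the least abundant in all 4 groups, with 3.71 ± 1.27 FPKM in the same livers (SD, n = 5).

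Several neighbours in this order had means whose SDs over the livers of the group overlapped. In control males these were Hpx and Hp, Apcs and Saa1 (87.4 ± 21.2 and 68.1 ± 16.9 FPKM, SD, n = 5), Orm2 and Saa2 (39.3 ± 11.8 and 38.0 ± 11.98 FPKM, SD, n = 5), and Saa2 and Lcn2, the latter at 19.96 ± 12.4 FPKM (SD, n = 5). In control females they were Hpx and Hp (3800 ± 642 and 2653 ± 564 FPKM, SD, n = 6), Orm2 and Saa1 (30.1 ± 4.35 and 28.7 ± 5.05 FPKM, SD, n = 6) and Saa2 and Lcn2 (14.9 ± 4.32 and 13.9 ± 5.62 FPKM, SD, n = 6). Both genes of a pair were measured in the same livers, and their difference within livers was not tested. Within livers, Hpx was above Hp in every control female, and Saa2 was above Lcn2 in every control male. The table gives Saa1 a length of 2478 bases and Saa2 2518 bases, while their longest GENCODE M21 coding transcripts have 609 and 652 bases. Their FPKM therefore depends on that length, and their order relative to other genes does too. Lcn2 has a table length of 2623 bases, and its FPKM and order depend on that length as well.

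**Figure D1:**
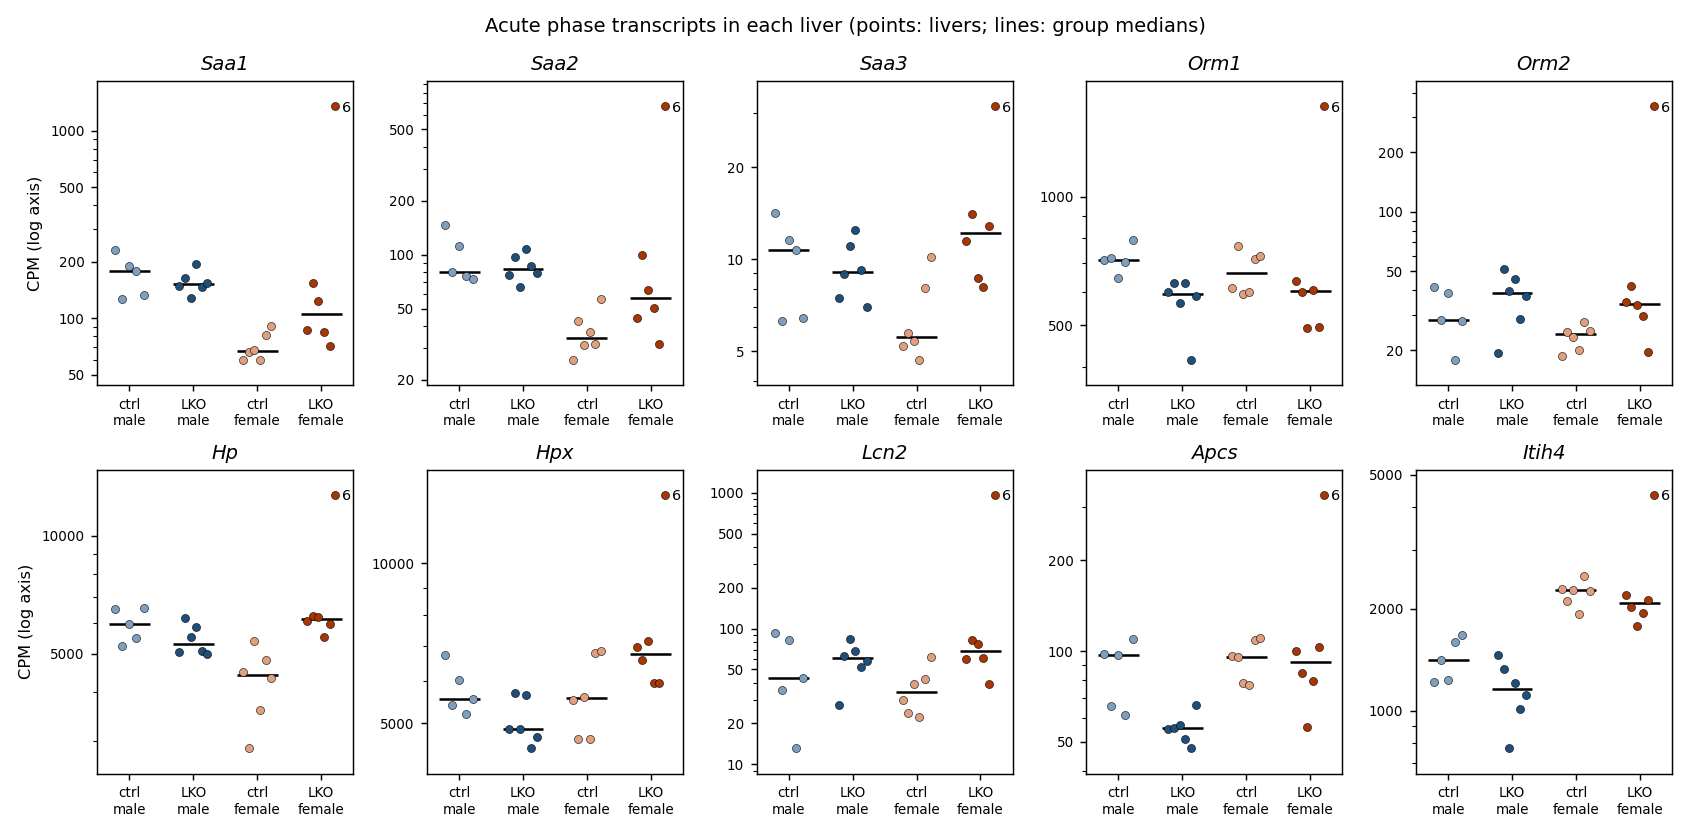
CPM of each of the 10 acute phase genes (log axes that differ between panels) in the 23 livers, by group. Points are livers in replicate order, lines are group medians, and the point marked 6 is LKO female replicate 6, the highest female liver in all 10 panels.

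The comparison of LKO with control females asked how loss of liver Cpt1a on this diet bears on each acute phase transcript. All 10 log2 fold changes were above 0, against 51.1% of all genes, with a median of 0.95 against 0.0051 over all 13684 genes tested. None of the 10 was called by edgeR's quasi-likelihood test at an adjusted p under 0.05, where 1.42% of all genes were. At an unadjusted p under 0.05 there were 7 of 10, against 15.6% of all genes. These were Saa1, Saa2, Saa3, Orm2, Hp, Hpx and Lcn2. Every LKO female was above the control mean in 5 of 10 genes, Saa1, Saa3, Hp, Hpx and Lcn2, against 8.35% of all genes. DESeq2's Wald test called 2 of 10, Saa3 and Hp, both higher in LKO, against 2.23% of the 24889 genes with a p-value. It gave no adjusted p for Saa1, Saa2, Orm2 and Lcn2, so these 4 could not be called. Shares of genes called by DESeq2 are over all genes with a p-value, with no count filter applied beforehand.

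Without replicate 6 the median was 0.48, 7 log2 fold changes were above 0, against 50.8% of all genes, and 3 were below. edgeR called none of the 10 (1.39% of all genes), with 7 of 10 at an unadjusted p under 0.05 against 16.7%. Hpx was not among these 7 (p 0.125), and Orm1 was (p 0.0326), with lower values in LKO. DESeq2 again called Saa3 and Hp, against 2.48% of all genes.

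Among the serum amyloid A genes, Saa1 encodes a main circulating form. In control females Saa1 was 60.0, 65.9, 67.6, 60.0, 81.1 and 90.8 CPM in replicates 1 to 6, and in LKO females it was 86.0, 153, 123, 84.7, 71.1 and 1347 CPM. Replicate 6 was far above the rest, 2 of the other 5 LKO livers exceeded every control, and the groups overlapped. Fitted over all 12 livers, the log2 fold change was 2.13 (standard error 0.66, edgeR adjusted p 0.128), and it was 0.55 without replicate 6 (SE 0.18, adjusted p 0.142).

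Saa2, the neighbouring gene, had the same pattern at a lower level. It was 25.9, 42.4, 31.2, 36.8, 31.7 and 56.3 CPM in control females and 44.5, 99.3, 63.6, 50.5, 31.6 and 673 CPM in LKO females. LKO replicates 2, 3 and 6 exceeded every control, and replicates 1, 4 and 5 lay within the control range. The log2 fold change was 2.10 (standard error 0.66, edgeR adjusted p 0.129) and 0.63 without replicate 6 (SE 0.25, adjusted p 0.22).

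Saa3, which is made in macrophages and fat as well as in liver, was low throughout. It was 5.21, 5.73, 5.41, 4.70, 8.03 and 10.2 CPM in control females and 11.5, 14.1, 8.70, 8.15, 12.8 and 31.6 CPM in LKO females. LKO replicates 1, 2, 5 and 6 exceeded every control, and replicates 3 and 4 overlapped the controls. Its log2 fold change was 1.15 (standard error 0.31, edgeR adjusted p 0.0821) and 0.76 without replicate 6 (SE 0.21, adjusted p 0.0859). DESeq2 called it higher with replicate 6 (adjusted p 0.00819) and without it (adjusted p 0.0202).

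The summed level of the 8 macrophage markers, a cell type that makes Saa3, was 605 to 997 CPM in LKO females and 526 to 999 CPM in control females. Of these 8 markers, 0 were called in females. The 5 adipocyte markers summed to 0.0647 to 5.44 CPM in control females and 0.573 to 6.16 CPM in LKO females. The part of either cell type in the Saa3 difference was not tested.

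Hp encodes haptoglobin, which binds haemoglobin freed from red cells. It was 4485, 2866, 5401, 3596, 4821 and 4333 CPM in control females and 6059, 6256, 6223, 5517, 5961 and 12716 CPM in LKO females. All 6 LKO livers, not replicate 6 alone, were above all 6 controls. Hp was the single gene of the 10 without overlap in the direction of higher LKO values, against 1.05% of all genes tested. Fitted over all 12 livers, the log2 fold change was 0.74 (standard error 0.21, edgeR adjusted p 0.0943) and 0.50 without replicate 6 (SE 0.14, adjusted p 0.0869). DESeq2 called it higher with replicate 6 (adjusted p 0.0132) and without it (adjusted p 0.0153), as did edgeR when all 23 livers shared 1 estimate of spread (adjusted p 0.041).

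Hpx encodes hemopexin, the plasma scavenger of free haem. It ran from 4672 to 6825 CPM in control females with a median of 5573 CPM. In LKO females it was 6960, 6563, 7136, 5949, 5964 and 13451 CPM. Every LKO liver was above the control mean, but the groups overlapped. The log2 fold change was 0.43 (standard error 0.19, edgeR adjusted p 0.297) and 0.20 without replicate 6 (SE 0.12, adjusted p 0.441).

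Lcn2 encodes lipocalin-2, which hepatocytes and neutrophils both make. It was 29.7, 23.99, 39.1, 22.2, 42.3 and 61.5 CPM in control females and 59.2, 82.6, 77.1, 60.6, 39.1 and 961 CPM in LKO females. Replicates 2, 3 and 6 exceeded every control and replicates 1, 4 and 5 lay within the control range. Its log2 fold change was 2.55 (standard error 0.73, edgeR adjusted p 0.103), the largest of the 10 genes, and 0.81 without replicate 6 (SE 0.25, adjusted p 0.116).

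Orm1 and Orm2 encode orosomucoids, also called alpha-1-acid glycoproteins, and differed from each other. Orm2 was 18.6, 24.6, 23.4, 20.1, 27.8 and 25.0 CPM in control females and 35.1, 42.1, 33.6, 29.8, 19.5 and 341 CPM in LKO females. All LKO livers except replicate 5 were above every control. The log2 fold change of Orm2 was 1.85 (standard error 0.61, edgeR adjusted p 0.144) and 0.46 without replicate 6 (SE 0.16, adjusted p 0.162).

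Orm1, the more abundant of the pair, was 613, 766, 592, 598, 716 and 727 CPM in control females and 635, 600.2, 493, 604, 496 and 1630.0 CPM in LKO females. Apart from replicate 6, no LKO liver was above the control mean, and replicates 3 and 5 were below every control. The log2 fold change of Orm1 was 0.15 (standard error 0.25, edgeR adjusted p 0.831) and turned to -0.24 without replicate 6 (SE 0.10, adjusted p 0.245).

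Apcs, serum amyloid P component, is a pentraxin that in the mouse is a main acute phase reactant. It was 77.2 to 111 CPM in control females, and 100.4, 84.3, 55.9, 79.8, 103 and 329 CPM in LKO females. Its log2 fold change was 0.41 (standard error 0.34, edgeR adjusted p 0.613) and -0.16 without replicate 6 (SE 0.15, adjusted p 0.655). Itih4, a heavy chain of the inter-alpha-trypsin inhibitor family, was 1933 to 2505 CPM in control females and 2193, 2027, 1785, 1941, 2128 and 4352 CPM in LKO females. Its log2 fold change was 0.11 (standard error 0.19, edgeR adjusted p 0.841) and -0.15 without replicate 6 (SE 0.09, adjusted p 0.43). For both genes replicate 6 was the only LKO liver above every control.

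The authors' deposited table gives no p-value for Saa1, Saa2, Orm2 and Lcn2 in females and lists their adjusted p-value as 1. They are 4 of 51 genes of that table without a p-value. DESeq2 as run here gave no adjusted p for the same 4 genes, and without replicate 6 it gave 0.0702 for Saa1, 0.279 for Saa2, 0.11 for Orm2 and 0.116 for Lcn2. The authors' deposited table gives an adjusted p-value of 0.00819 for Saa3 and 0.0132 for Hp.

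LKO female replicate 6 was the highest of the 12 female livers in 10 of 10 genes. It was also separated from the other 5 LKO females in 10 of 10, by Dixon's criterion that its gap to the nearest liver exceed 0.625 of the range of the group. The same was so of 266 of 13684 genes, 1.94%. Relative to the median of the other 5 LKO females, the difference was 15.9-fold for Lcn2, 15.7-fold for Saa1, 13.3-fold for Saa2 and 10.1-fold for Orm2. Among 10621 genes ranked by this ratio, those 4 held ranks 2 to 5. Rank 1 was Mup16, a major urinary protein gene, with a ratio of 22.2, and ranks 6 to 11 were Mup12 (8.49), Mup17 (6.98), Trib3 (6.24), Nupr1 (5.86), Derl3 (5.82) and Fgf21 (4.94). These 7 genes were named after their values were seen. The other genes had ratios of 3.90 for Apcs, 2.75 for Saa3, 2.72 for Orm1, 2.15 for Itih4, 2.10 for Hp and 2.05 for Hpx. Hp and Hpx, the most abundant of the 10, reached 12716 and 13451 CPM.

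Among 30 other acute phase genes, replicate 6 was above all other 11 females in 17 and below all of them in 1, against 11.6% and 11.4% of all genes. Of the 9 negative acute phase genes it was above in 1 and below in 5, among them Alb, albumin, at 37771 CPM against 42213 to 61037 CPM in the other LKO females. Its hepatocyte markers summed to 17289 CPM, below the 18304 to 23803 CPM of the other 5 LKO females and within the 17118 to 26660 CPM of the control females.

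Of 9 inducing cytokine genes in the table, replicate 6 was above all other 11 females in 0 and below all of them in 1, Il1a, at 4.50 CPM against 5.95 to 8.10 CPM in the other LKO females and 4.51 to 8.82 CPM in the control females. Il1b, interleukin-1 beta, was 12.3 CPM in replicate 6, 8.95 to 14.7 CPM in the other LKO females and 3.57 to 31.7 CPM in the control females. Il6, Tnf and Osm were under 1 CPM in every female liver. These 5 cytokine genes were singled out after their values were seen.

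Markers of other cell types were summed in the same liver. Its 10 neutrophil markers summed to 28.0 CPM, against 7.90 to 10.9 CPM in the other LKO females and 4.57 to 18.9 CPM in the control females. Against 11.6% of all genes, it was above all other 11 females in 6 of these 10. Among them Ngp was 3.85 CPM, against 0.0485 to 0.352 CPM in the other LKO females, S100a8 was 5.52 CPM, against 0.284 to 1.80 CPM, and Mpo was 1.16 CPM, against 0 to 0.176 CPM. Ly6g was 0.0506 CPM, against 0 to 0.124 CPM. The 4 neutrophil genes were singled out after their values were seen. Its 8 macrophage markers summed to 997 CPM, against 605 to 849 CPM in the other LKO females and 526 to 999 CPM in the controls. The 6 stellate cell and fibroblast markers summed to 180.0 CPM. That was below the 258 to 344 CPM of the other LKO females and the 185 to 239 CPM of the controls. Replicate 6 was below all other 11 females in 3 of these 6, against 11.4% of all genes. The same held for 4 of 8 hepatocyte, 3 of 5 sinusoidal endothelium and 2 of 6 T and B lymphocyte markers. It held for 0 of the macrophage, neutrophil, adipocyte and cholangiocyte markers. The part of any of these cells in the levels of Lcn2 and the other genes was not tested.

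**Figure D2:**
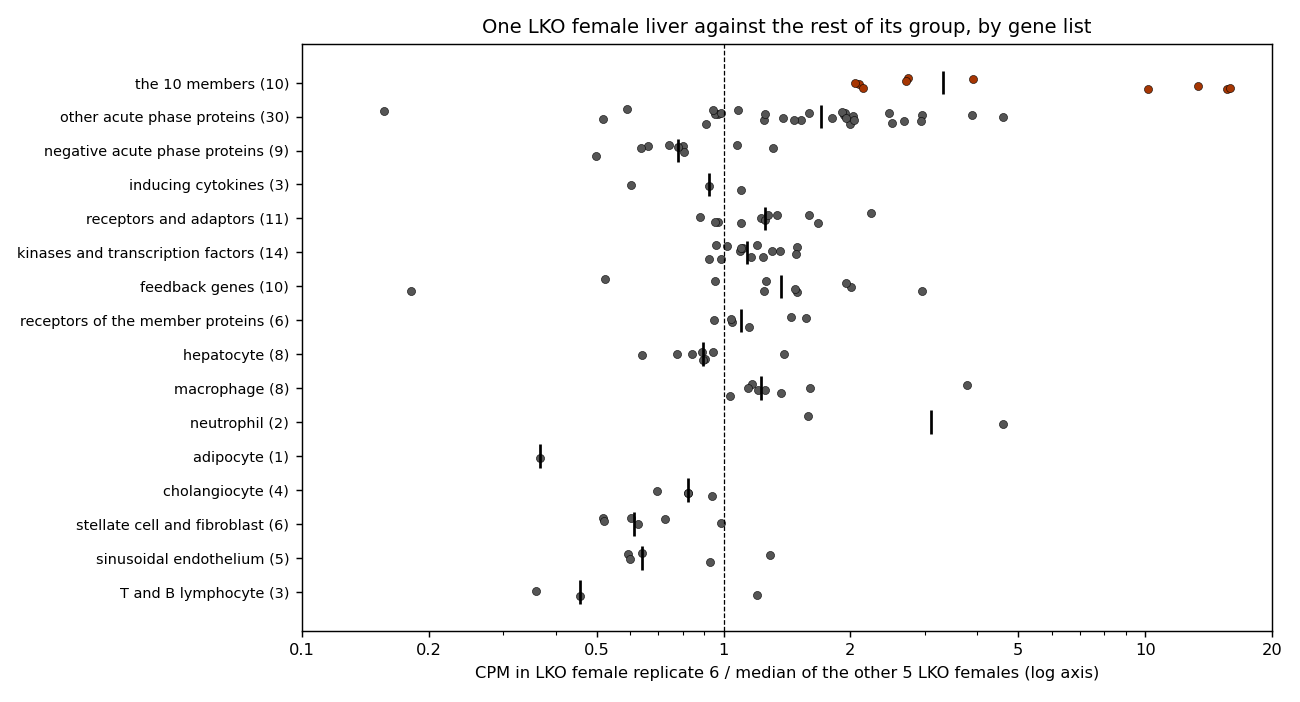
Ratio of CPM in LKO female replicate 6 to the median of the other 5 LKO females (log axis) for the 10 members and for genes of the pathway and cell type lists with a median of at least 1 CPM in those 5 livers. Each point is a gene, black bars are list medians, numbers in parentheses count the genes plotted, and the dashed line marks equal levels; all 10 members lie at 2.05 or higher.

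In males the genotype difference was small and mostly in the other direction. The log2 fold change was below 0 in 8 of 10 genes, against 47.9% of all genes, with a median of -0.17 against 0.010 over all 13805 genes tested. Without control male replicate 1 it was below 0 in 6 of 10, with a median of -0.052. edgeR called none of the 10, against 0.00724% of all genes, and 2 of 10 had an unadjusted p under 0.05, against 12.5%. DESeq2 called 1, Apcs, against 0.438% of all genes, and gave no adjusted p for Saa3. Every LKO male was below the control mean in 3 of 10 genes, Orm1, Hpx and Apcs, against 12% of all genes.

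Apcs was 97.7, 66.0, 97.1, 61.6 and 109 CPM in control males (replicates 1, 2, 3, 4 and 6) and 55.3, 55.6, 56.8, 51.0, 47.6 and 66.2 CPM in LKO males. All LKO males were below the control mean, and replicate 6 of the LKO males overlapped control replicates 2 and 4. Its log2 fold change was -0.64 (SE 0.15, p 0.000728, adjusted p 0.235 by edgeR, 0.0115 by DESeq2).

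Orm1 was 711, 718, 644, 705 and 793 CPM in control males and 597, 628, 565, 629, 415 and 585 CPM in LKO males. Every LKO value lay below every control value, and Orm1 was the single gene of the 10 for which this held, against 1.10% of all genes tested. The log2 fold change was -0.33 (SE 0.11, p 0.0107, edgeR adjusted p 0.285). In females without replicate 6 the value was -0.24, and neither passed the adjusted threshold.

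The other 8 genes had log2 fold changes from -0.31 to 0.26 in males, with adjusted p from 0.423 to 0.935 by edgeR. Hpx was 5785 ± 608 CPM in control males (SD, n = 5) and 5047 ± 505 CPM in LKO males (SD, n = 6), with all 6 LKO livers below the control mean (log2 fold change -0.20, SE 0.10). Itih4 was 1426 ± 207 and 1147 ± 242 CPM in the same groups (log2 fold change -0.31, SE 0.15). Hp was 5951 ± 594 and 5449 ± 493 CPM, a log2 fold change of -0.13 (SE 0.10).

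The serum amyloid A genes and Lcn2 varied widely among males. Saa1 was 231, 126, 190, 179 and 132 CPM in control males and 149, 163, 128, 193, 147 and 154 CPM in LKO males, and the LKO values lay inside the control range. Saa2 was 97.4 ± 31.6 and 85.4 ± 15.1 CPM, and Saa3 9.85 ± 3.42 and 9.37 ± 2.09 CPM (SD, n = 5 and 6). Lcn2 was 93.2, 35.4, 82.4, 13.1 and 43.3 CPM in control males, a 7.11-fold range, and 27.3 to 84.2 CPM in LKO males. The lowest value was that of control male replicate 4, whose library had the fewest counts (14224665) and the lowest male TMM factor (0.870). By Dixon's criterion for 5 livers, this liver was apart and highest of its group in 2.02% of all genes, and apart and lowest in 0.927%. The log2 fold change of Lcn2 was 0.13 (SE 0.40), and that of Orm2 was 0.26 (SE 0.25).

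**Figure D3:**
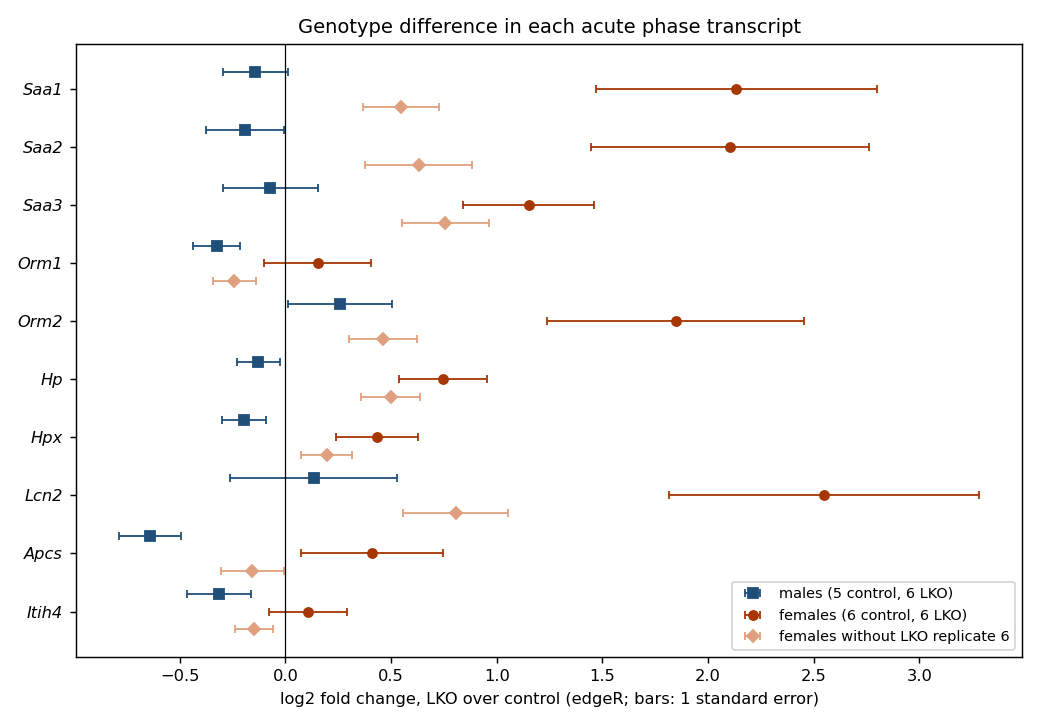
Log2 fold change of LKO over control (edgeR, bars are 1 standard error) for the 10 genes in males, in females and in females without LKO replicate 6. In females all 10 values are above 0, and without replicate 6 those of Orm1, Apcs and Itih4 are below 0.

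The difference between the sexes in the genotype effect was tested in a fit of all 23 livers. The interaction, females minus males, was above 0 for 10 of 10 genes, against 51% of all genes, with a median of 1.14. None was called by edgeR, as was so of 0% of all genes, and 8 of 10 had an unadjusted p under 0.05, against 12.9%. Without replicate 6 all 10 values were above 0 with a median of 0.55, none was called (0% of all genes), and 6 of 10 had an unadjusted p under 0.05, against 14% of all genes. The comparison uses the same livers as those within each sex and is not independent of them.

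Hp had the lowest interaction p of the 10 (log2 difference 0.87, SE 0.25, p 0.0018, edgeR adjusted p 0.189). Without replicate 6 it was 0.62 (standard error 0.17, edgeR adjusted p 0.159), and DESeq2 then called it (adjusted p 0.0408, against 0.495% of all genes called). Hpx was below the control mean in 6 of 6 LKO males and above it in 6 of 6 LKO females, with an interaction of 0.63 (SE 0.23, p 0.0126, edgeR adjusted p 0.287) and 0.39 without replicate 6 (adjusted p 0.275). The interaction was 2.28 for Saa1 (standard error 0.75, edgeR adjusted p 0.235) and 0.69 without replicate 6 (SE 0.25, adjusted p 0.257).

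The control livers of the sexes differed in 3 of 10 genes by edgeR, against 18% of all genes. The fold changes come from a joint scaling of the control livers, while the CPM beside them were scaled separately in each sex. Saa1 was 70.9 ± 12.4 CPM in control females (SD, n = 6) and 172 ± 43.5 CPM in control males (SD, n = 5), with no control female as high as the lowest male value of 126 CPM. It was lower in females by a log2 fold change of -1.24 (standard error 0.16, edgeR adjusted p 0.000334). Saa2 was lower in females as well, at 37.4 ± 10.8 against 97.4 ± 31.6 CPM (log2 fold change -1.34, standard error 0.22, edgeR adjusted p 0.00137). Of all genes, 9.2% were called lower in females and 8.8% higher.

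Itih4 was the one gene of the 10 called higher in control females, at 2232 ± 192 against 1426 ± 207 CPM (log2 fold change 0.68, standard error 0.11, edgeR adjusted p 0.00149). Hp was 4250 ± 901 CPM in control females and 5951 ± 594 CPM in control males (log2 fold change -0.45, standard error 0.15, edgeR adjusted p 0.0517), and DESeq2 called it lower in females (adjusted p 0.0182, against 13.2% of all genes called). In LKO females other than replicate 6, Hp was at 6003 ± 297 CPM (SD, n = 5). These levels lay within the range of the control males, 5226 to 6549 CPM. The CPM of the sexes were scaled separately, and this comparison was not tested. Hpx, Orm1 and Apcs had log2 fold changes of 0.0097, -0.060 and 0.16 between control females and males (SE 0.13, 0.097 and 0.16).

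How the genes varied together between livers was examined on log2 CPM centred on each group mean, over 45 pairs of genes per sex, with p-values from permuting livers within groups. In the 11 males 34 pairs had a positive Pearson r, the median was 0.411, and no pair was called at an adjusted p under 0.05. The pair with the lowest p was Orm2 with Lcn2 (r 0.881, permutation p 0.00112, adjusted p 0.0504, Spearman rho 0.864, permutation p 0.00216). Leaving out the 2 livers farthest from the median of Orm2, r was 0.698. Saa1 with Saa2 had r 0.862 (permutation p 0.003, adjusted p 0.0582, rho 0.791, permutation p 0.0203), and 0.815 without the 2 farthest.

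In females the correlations rested largely on replicate 6. With it, all 45 pairs were positive, the median r was 0.867 and 26 pairs were called. Without it, 36 of 45 were positive, the median was 0.415 and 1 pair was called, Saa1 with Lcn2 (r 0.824, permutation p 0.00028, adjusted p 0.0126, rho 0.873, permutation p 0.001, n = 11). Leaving out the 2 livers farthest from the median of Saa1 as well, r was 0.779. Without replicate 6, Saa1 also had r 0.858 with Saa2 (permutation p 0.00285, adjusted p 0.0532) and 0.807 with Orm2 (permutation p 0.00868, adjusted p 0.0781). Both genes of a pair come from the same library and share its depth.

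**Figure D4:**
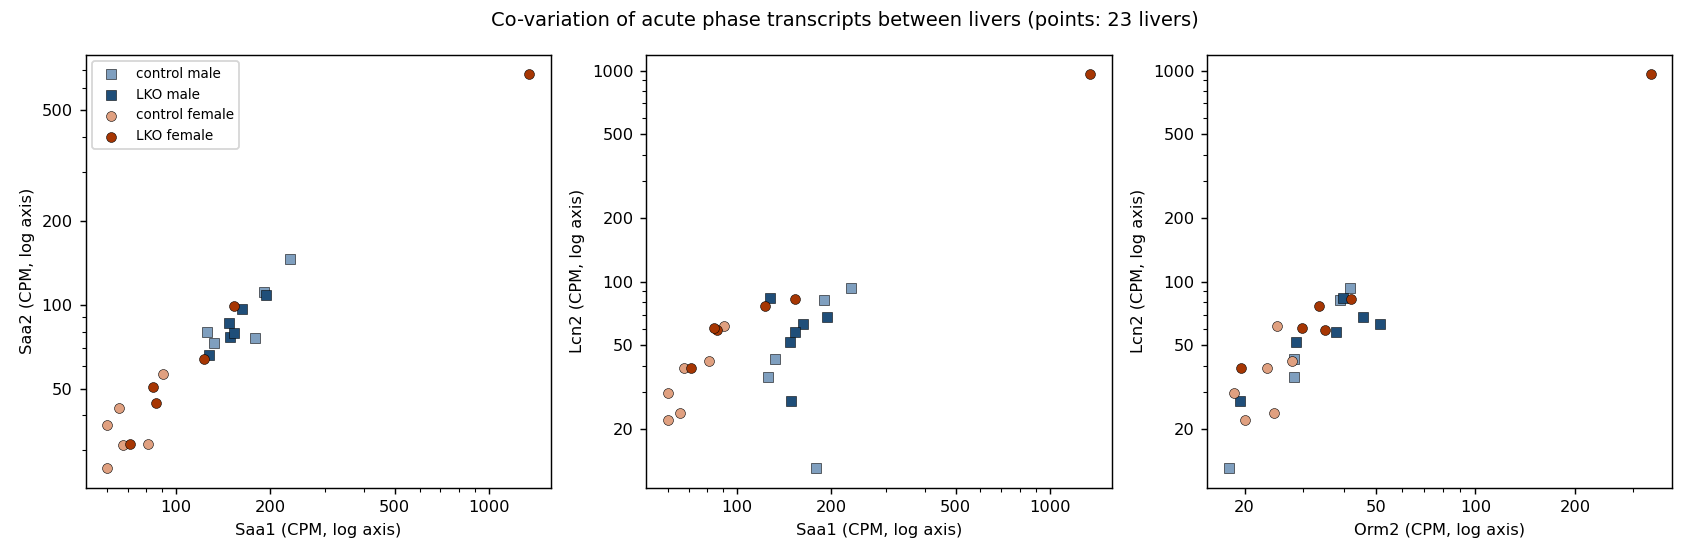
CPM of Saa2 against Saa1, Lcn2 against Saa1 and Lcn2 against Orm2 in the 23 livers (log axes), with squares for males and circles for females. LKO female replicate 6 is the point at the upper right of each panel, and the control females lie at lower Saa1 than the control males. CPM were scaled separately in each sex.

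Over all 23 livers, the genes whose centred log2 CPM was most like that of Saa1 were ranked among the 10611 genes whose mean count was 50 or more. Saa2 ranked highest with replicate 6 (r 0.967) and without it (r 0.857, over 22 livers). The 5 most like genes outside the 10 were Sqstm1 (r 0.870), Litaf (0.774), Fbxo6 (0.766), Sbf1 (0.761) and Lrg1 (0.756). Without replicate 6 their r values were 0.564, 0.554, 0.561, 0.489 and 0.029, and Sqstm1 then ranked 50 and Lrg1 4414. The 5 most like genes outside the 10 without replicate 6 were instead Rgs12 (r 0.744), Eml2 (0.741), Cxcl9 (0.693), Gm5884 (0.678) and Zbtb17 (0.670). Of the 10 genes, Orm1, Apcs and Itih4 went from r 0.847, 0.768 and 0.688 with Saa1 to 0.148, -0.05 and -0.019.

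No gene of the acute phase pathway lists was called by edgeR in either sex. The counts of direction in the lists below stand beside these shares over all genes. In males 47.9% of all genes had a log2 fold change below 0. In females 51.1% were above 0, and 50.8% without replicate 6. Of 30 other acute phase genes, 7 had log2 fold changes above 0 in males (median -0.18) and 13 in females (median -0.13). Without replicate 6, 7 were above 0 in females (median -0.25). At an unadjusted p under 0.05 there were 3 of 30 in males and 7 of 30 in females, against 12.5% and 15.6% of all genes, and without replicate 6 there were 11 of 30 in females, against 16.7%. The lowest p in females was that of Il1rn, the interleukin-1 receptor antagonist, at 5.57 to 11.6 CPM in control and 10.8 to 20.1 CPM in LKO females, a log2 fold change of 0.76 (standard error 0.19, edgeR adjusted p 0.0588, and 0.0916 without replicate 6). In males it was that of Mbl2, mannose-binding lectin, at 330 ± 33.2 and 401 ± 45.6 CPM (log2 fold change 0.28, standard error 0.10, edgeR adjusted p 0.303).

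Of the 9 negative acute phase genes, 8 had log2 fold changes below 0 in males (median -0.18) and 5 in females (median -0.066), or 6 without replicate 6 (median -0.014). Apoa1, the main protein of high-density lipoprotein, had the lowest p in males (log2 fold change -0.47, standard error 0.16, edgeR adjusted p 0.284). Alb had the lowest p in females, at -0.26 (standard error 0.14, edgeR adjusted p 0.391), and -0.18 without replicate 6 (adjusted p 0.471).

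The upstream genes had few counts or small differences. Of 10 listed inducing cytokines, 9 were in the tables and 3 had enough counts to be tested in each sex, with Il1a in males (log2 fold change 0.18) and Il18 in females (-0.26, with and without replicate 6) at the lowest p. Of the receptors and adaptors, 8 of 12 tested were above 0 in males and 6 of 11 in females, or 3 of 11 without replicate 6. Il6ra, the interleukin-6 receptor, was 47.6 ± 11.4 CPM in control and 36.0 ± 12.1 CPM in LKO females (SD, n = 6), a log2 fold change of -0.40 (standard error 0.20, edgeR adjusted p 0.342), and -0.43 without replicate 6 (adjusted p 0.334). Tnfrsf1a, a tumour necrosis factor receptor, was -0.22 in males (SE 0.078, adjusted p 0.303).

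Of 14 kinases and transcription factors, 6 were above 0 in males and 3 in females, with and without replicate 6. Cebpa, a C/EBP factor of hepatocytes, was 881 ± 66.4 CPM in control and 727 ± 57.5 CPM in LKO males (log2 fold change -0.28, standard error 0.086, edgeR adjusted p 0.274). Tyk2, a Janus kinase, was -0.25 in females (standard error 0.091, edgeR adjusted p 0.188), and -0.31 without replicate 6 (adjusted p 0.0935). Of 10 feedback genes, 6 were above 0 in males, where Bcl3 had the lowest p (-0.70, standard error 0.37, edgeR adjusted p 0.463), and 3 in females, or 1 without replicate 6. In females Tsc22d3, a glucocorticoid-induced gene, had the lowest p (-0.75, standard error 0.23, edgeR adjusted p 0.128, and -0.72 without replicate 6, adjusted p 0.163).

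Of 6 receptors for the proteins encoded by these genes, 3 were above 0 in males and 4 in females, or 3 without replicate 6. Cd163, the macrophage receptor for haptoglobin with haemoglobin, was 1.44 to 7.77 CPM in control and 3.40 to 9.03 CPM in LKO males (log2 fold change 0.60, standard error 0.34, edgeR adjusted p 0.494). Cd36, a scavenger receptor, was 97.4 ± 32.9 and 147 ± 6.98 CPM in control and LKO females (log2 fold change 0.59, standard error 0.18, edgeR adjusted p 0.111), and 0.59 without replicate 6 (adjusted p 0.131).

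Across the 8 lists of cell type markers, the single gene called in either sex with all livers was Spp1, in the cholangiocyte list, at 37.6 CPM in control and 59.5 CPM in LKO females (log2 fold change 0.66, standard error 0.12, edgeR adjusted p 0.0135, and 0.68 without replicate 6, adjusted p 0.018). Without replicate 6, Lrat, a stellate cell marker, was called as well, with a log2 fold change of 0.60 (standard error 0.12, edgeR adjusted p 0.0223), against 0.49 with it (adjusted p 0.142). Of the 6 stellate cell and fibroblast markers, all 6 had log2 fold changes above 0 in females (median 0.30), against 51.1% of all genes. An unadjusted p under 0.05 was found for 3 of them, against 15.6% of all genes. Without replicate 6 both counts were the same (median 0.39), against 50.8% and 16.7% of all genes. Of the 8 hepatocyte markers, 6 were below 0 in females (median -0.25) and 4 had an unadjusted p under 0.05, against 15.6% of all genes. Without replicate 6, 6 were below 0 (median -0.21) and 3 had an unadjusted p under 0.05, against 16.7% of all genes. The part of these cell types in the levels of the 10 genes was not tested.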

How the data were processed

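Per the labels, liver mRNA was selected with poly-T beads and made into dUTP libraries. Per the submitters' processing notes, HISAT2 2.0.5 and the mm39 build were used, while the counting tool, its strand setting and the annotation release are not given in the sources used here. The authors deposited raw counts per gene, FPKM values, gene lengths, and log2 fold changes with p-values and adjusted p-values of LKO against control, in 1 table per sex. Every sample column was mapped (0 left out).

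Counts were tested with edgeR 4.0.16 in R 4.3.3 (filterByExpr, TMM factors, quasi-likelihood test, Benjamini-Hochberg adjustment over all genes tested, threshold 0.05), within each sex, for the interaction on the 22852 shared genes of 23 samples, and for the sexes among controls. CPM are scaled by TMM factors computed separately within each sex, so those of males and females are not on a common scale. Alternatives were RLE factors, library size alone, other filters, DESeq2 1.42.0, limma 3.58.1 on log2(FPKM + 1) and log2(FPKM + 0.1), robust moderation, 1 fit over all 23 samples, a block for replicate number and leaving out each sample. Voom with sample quality weights, DESeq2 without LKO female replicate 6, and the alternatives for correlations were added after seeing the data. Correlations used 100000 permutations within groups. The edgeR steps were tested on simulated data.

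The members and lists were chosen with earlier results of these data known. Named genes are the 10 members, Cpt1a, in each pathway list any gene called and the lowest p per sex, and the 5 genes most like Saa1. Total counts of 14224665 to 19626662 per library left counts of 75 or more for every member in every liver, so sampling error is small beside the spread between livers. Promoters are from RefSeq (GRCm38.p6), another build than the counts, and were matched by symbol (8 of 10).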

Additional observations from a re-analysis of the deposited data

Results flagged for a closer look

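LKO female replicate 6 lay apart from and above the other 5 livers of its group in all 10 genes. Its CPM was 1347 for Saa1, 673 for Saa2, 31.6 for Saa3, 1630.0 for Orm1, 341 for Orm2, 12716 for Hp, 13451 for Hpx, 961 for Lcn2, 329 for Apcs and 4352 for Itih4. Chance places about 1 in 20 groups past this limit for a single gene, and the 10 genes come from 1 liver, so these are not 10 separate events. Across all genes tested the same liver was apart and highest in 1.94%, and apart and lowest in 0.548%. In the other 5 LKO females these shares ran from 0.227 to 1.39% and from 0.139 to 0.292%, so its departures were not limited to these 10 genes.

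LKO male replicate 5 lay apart from and below its group in Orm1, at 415 CPM against 565 to 629 CPM in the other 5 LKO males. The lowest control male was at 644 CPM, above all 6 LKO males.

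Hpx was lower than the control mean in every LKO male and higher in every LKO female, with an interaction of 0.63 on the log2 scale. The test of that difference gave an edgeR adjusted p of 0.287, so it is not shown to differ after adjustment, and without LKO female replicate 6 the interaction was 0.39 (adjusted p 0.275).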

How the results depend on the processing

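Of 920 values of single genes under the alternatives, 887 kept their direction and side of the threshold, 13 became called and 20 changed sign. The number of genes called out of 10 was 1 in males with DESeq2, and in females 2 with DESeq2, 1 with all 23 samples and 1 with the replicate block. Leaving out 1 sample, it stayed at 0 for males, ranged between 0 and 2 for females and between 0 and 1 for the interaction, where the nonzero values are DESeq2 fits without LKO female replicate 6. It ran from 3 to 5 between the sexes in controls, with 5 without control male replicate 4, where Orm2 and Hp were added, and 4 without control female replicate 3, where Hp was added. The count of correlated pairs was between 0 and 1 for males, and for females between 1 and 33, with 1 without LKO female replicate 6.

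The replicate block called Saa3 in females (adjusted p 0.00702), and over all genes 334 against 194 in females and 2 against 1 in males. Same-numbered samples had correlations between 0.0069 and 0.177 for females, all above 0, and between -0.341 and 0.404 for males. Of the female samples 6 of 12 correlated best with their own number, each out of 6 samples of the other group. Of the male samples 2 of 10 did so. The main fits did not pair samples by number, and these values do not settle whether the numbers mark pairs. DESeq2 called 107 genes in males against 1 by edgeR, and 554 against 194 in females.

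Signs turned in females with voom quality weights for Orm1 (-0.076), Apcs (-0.014) and Itih4 (-0.062), and between the sexes with library size alone for Hpx (-0.029). Leaving out 1 sample, log2 fold changes crossed 0 for Saa2 (-0.28 to 0.0050), Saa3 (-0.19 to 0.099) and Lcn2 (-0.11 to 0.43) in males, Orm1 (-0.25 to 0.25, with -0.242 without LKO female replicate 6 by edgeR), Apcs (-0.16 to 0.56) and Itih4 (-0.15 to 0.18) in females, and Hpx (-0.049 to 0.067) between the sexes. None of these differences was called. The cause of these shifts was not tested.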
